A study of Mus musculus with 8 samples.

Results

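The proton pump and acid secretion machinery of the osteoclast was described here as 31 named mouse genes, found by symbol among the 46517 genes of the table. They comprised 25 genes of the vacuolar H+-ATPase, namely 10 subunits of the membrane sector V0, 13 of the cytosolic sector V1 and 2 accessory subunits, and 6 further genes for acid and chloride supply (*Clcn7*, *Ostm1*, *Car2*, *Slc4a2*) and for membrane traffic to the resorbing face (*Snx10*, *Plekhm1*). All 31 were present in the table, 25 were abundant enough to be tested and 6 were not.

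Osteoclasts were grown from the femoral bone marrow of 4 *Elmo1*+/- and 4 *Elmo1*-/- mice, 6 to 8 weeks old, and their mRNA was sequenced as 1 library per mouse. Every culture was given RANKL as a GST fusion (50 ng/ml, over 7 days) and 10% L929 conditioned medium as the source of M-CSF, and no library was from mice with 2 intact copies of *Elmo1* by its genotype label, although the titles of the controls say WT. The deletion was global, so it was present in every cell type of the culture, the cultures were not sorted, and a strain is not given for these libraries. ELMO1 is a cytoplasmic adaptor that works with DOCK proteins to activate the small GTPase Rac, and the comparison asks how its loss changed the transcripts of mature osteoclasts.

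A resorbing osteoclast seals off the bone beneath it and acidifies that space across the ruffled border, a folded membrane formed by fusion of lysosome-like vesicles. Protons come from carbonic anhydrase 2, are moved by the V-ATPase, a rotary pump whose V1 sector burns ATP and whose V0 sector carries the protons through the membrane, and are followed by chloride through the ClC-7 exchanger, while bicarbonate leaves on the opposite side through the exchanger AE2, encoded by *Slc4a2*. Loss of *TCIRG1*, *CLCN7*, *OSTM1*, *SNX10*, *PLEKHM1* or *CA2* causes osteopetrosis, the failure of bone resorption, in humans.

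*Elmo1* itself had 1528, 1423, 1769 and 1651 normalized counts in *Elmo1*+/- libraries 1 to 4 and 274, 287, 316 and 291 in *Elmo1*-/- libraries 1 to 4. The lowest control was far above the highest *Elmo1*-/- library, and the log2 fold change was -2.44 (SE 0.088, 95% interval -2.64 to -2.24) with an adjusted p of 8.40e-06 (limma, Benjamini-Hochberg), as the genotype labels say. Total reads on genes lay between 20905502 and 40846651 per library. The 10 osteoclast markers checked (such as *Acp5*, *Ctsk* and *Calcr*) were all tested. Their summed normalized count was 447617 to 684512 in the libraries numbered 1 and 2 of both genotypes and 1007716 to 1150098 in those numbered 3 and 4. All 10 were lowest in *Elmo1*-/- library 1, against 28.3% of all tested genes. All 10 were higher in libraries 3 and 4 without overlap, against 18.1% of all tested genes. The 10 macrophage markers summed to 403266 to 448863 in libraries 1 and 2 and to 338834 to 424901 in libraries 3 and 4. Of these markers, 4 lay lower in libraries 3 and 4 without overlap, against 15.8% of all tested genes, and 6 overlapped. Of the other lists, 9 of 10 neutrophil, 4 of 6 dendritic, 3 of 6 stromal and osteoblast and 1 of 5 B cell markers were tested. None of the T and NK cell, erythroid or mast cell markers reached the level needed, at summed counts of at most 17.0. The first principal component, with 62.3% of the variance, parted the libraries numbered 3 and 4 from the other 4. What the numbers mean is not in the labels. Per the methods, each of 2 experiments held 2 mice of each genotype, without saying which. Values by number are therefore given below as a description, with no test, because the split was known from these data.

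No member of the acid secretion machinery passed the test between the genotypes, while most lay apart between the sets of library numbers. Of the 25 tested members, 0 passed an adjusted p of 0.05 (limma, Benjamini-Hochberg over 14139 genes, of which 0.00707%, *Elmo1* alone, were called). At an unadjusted p under 0.05, limma also gave 0 members, against 0.941% of all tested genes, and edgeR's quasi-likelihood test on the recovered reads gave 0, against 1.02%. Adjusted p-values under 0.05 in edgeR likewise came from 0 members, against 0.00704% of its tested genes, and with the replicate number as a block limma gave 0 members at an unadjusted p under 0.05, against 2.75%. The limma values of single genes below are from the fit without this block, except where it is named. Their SEs and intervals thus include the difference by number. With the block, the SE was 0.20 in place of 0.56 for *Atp6v0d2* and 0.17 in place of 0.37 for *Slc4a2*. The intervals were narrower with it for all members but *Atp6v1g2*, and all spanned 0. DESeq2 on the same reads called 0 members. In 0 members did the 4 libraries of one genotype lie wholly above the 4 of the other, against 0.941% of all tested genes. Each set of numbers holds 2 libraries of each genotype, so a gene apart by number cannot also be apart by genotype. This count and the next are therefore not independent. In 20 members the 4 libraries numbered 3 and 4 did not overlap with the 4 numbered 1 and 2, against 34.0% of all tested genes. Of these, 19 were higher in libraries 3 and 4, against 18.1% of all tested genes, and 1, *Atp6v0a1*, was lower, against 15.8%. The 5 members that overlapped were *Atp6v0a2*, *Atp6v0d1*, *Atp6v1g2*, *Atp6ap1* and *Plekhm1*.

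**Figure D1:**
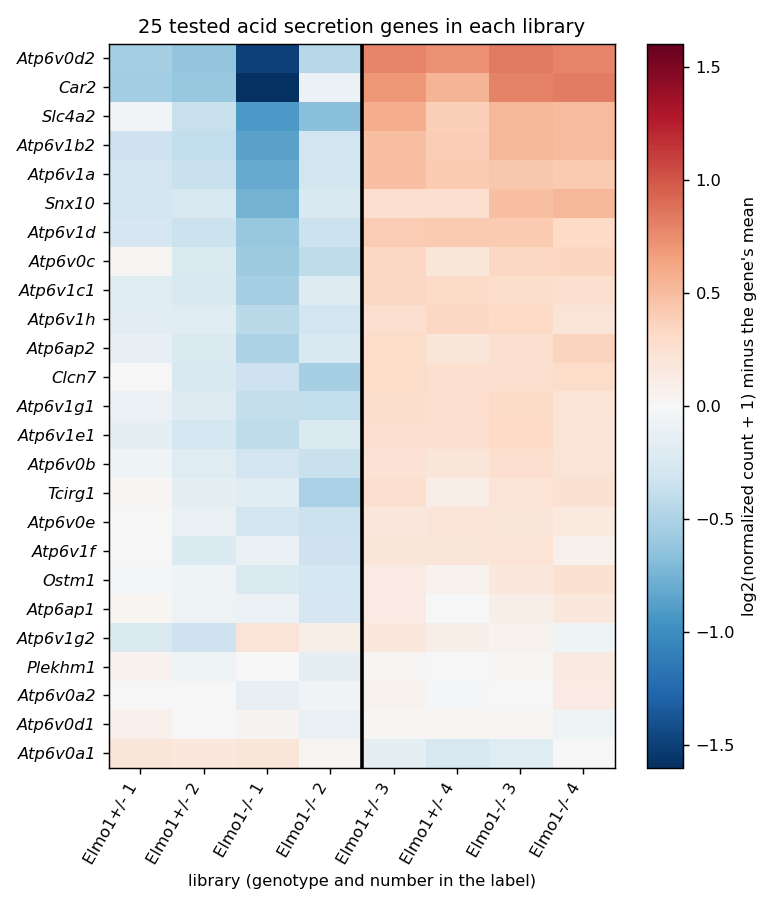
Each row is 1 of the 25 tested genes and each column 1 library, with libraries 1 and 2 of both genotypes left of the line and libraries 3 and 4 right of it. Colour gives log2(normalized count + 1) minus the gene's mean over the 8 libraries, and rows are ordered by the difference between the sets of numbers. 19 genes were higher in every library right of the line, most of all *Atp6v0d2* and *Car2*, and *Atp6v0a1* in the bottom row was lower in every one.

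All 31 members summed to 294382, 273612, 416033 and 398241 normalized counts in *Elmo1*+/- libraries 1 to 4 and to 231168, 262549, 420368 and 416512 in *Elmo1*-/- libraries 1 to 4. This was 0.691% of a library's normalized counts in *Elmo1*-/- library 1, the lowest, and 1.34% in *Elmo1*-/- library 3, the highest, both of the same genotype. The summed level in libraries 1 and 2 stayed below that in libraries 3 and 4 in both genotypes. The osteoclast markers moved with this difference, as their sums above show. In cultures of mixed cells, fewer osteoclasts and less of these RNAs per osteoclast cannot be told apart.

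The promoters of the pump were searched for CACGTG, the E-box core that MiT/TFE factors such as MITF and TFEB bind, since lysosomal and pump genes are known targets of these factors. RefSeq windows of 250 bases before to 50 after a start site (GRCm38.p6) were at hand for 24 members, and not for *Atp6v0d2*, *Atp6v1h*, *Atp6v1g1*, *Atp6v1b2*, *Atp6v0a2*, *Atp6v1c1* and *Car2*. The 24 members had 33 windows, so some had more than 1 start site. Distances below are from the start site of the window that holds the match. CACGTG, which reads the same on both strands, stood in the windows of 5 members (20.8% of 24), against 8.09% of all 27025 genes with a window. Among tested genes these shares were 5 of 18 members (27.8%) and 11.7% of all. The stretches around the matches of these 5 members are shown because they hold the searched letters. Each reads 5′ to 3′ along the gene, with CACGTG in capitals.
Atp6v0b: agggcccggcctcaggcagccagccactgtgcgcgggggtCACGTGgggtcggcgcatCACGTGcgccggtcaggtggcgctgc
Atp6v0d1: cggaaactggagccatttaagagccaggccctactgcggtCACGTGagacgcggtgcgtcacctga
Atp6v1a: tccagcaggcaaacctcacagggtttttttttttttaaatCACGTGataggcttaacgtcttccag
Clcn7: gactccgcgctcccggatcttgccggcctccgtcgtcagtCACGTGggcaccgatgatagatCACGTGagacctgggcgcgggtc
Atp6v0e: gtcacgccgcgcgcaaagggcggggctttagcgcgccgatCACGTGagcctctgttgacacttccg
In GRCm38.p6 coordinates, the *Atp6v0b* stretch is chr4:117887322-117887405, minus strand, with matches beginning 36 and 18 bases before the start. The *Atp6v0d1* stretch is chr8:105566042-105566107, minus strand, with its match 3 bases before the start. For *Atp6v1a* it is chr16:44139365-44139430, minus strand, where the match begins 131 bases before the start. For *Atp6v0e* it is chr17:26676359-26676424, plus strand, where it begins 3 bases after. Both stretches lie inside the gene as annotated in GENCODE (chr16:44085402-44139705 and chr17:26663231-26699647), so these are not the outermost starts. The *Clcn7* stretch, chr17:25133336-25133420, plus strand, holds matches beginning 15 bases before and 7 bases after the start. A match in these windows is a description of the sequence, not of binding. Of the MiT/TFE genes themselves (*Mitf*, *Tfeb*, *Tfe3* and *Tfec*), all 4 were tested and 0 were called in either direction. None of the 4 was separately higher in libraries 3 and 4, 1 was lower without overlap (15.8% of all tested genes were), and the largest genotype difference was that of *Mitf*, at 0.12 (SE 0.12, 95% interval -0.15 to 0.38) in log2.

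Subunit a of V0 anchors the pump's membrane sector and sets where the pump goes, and its a3 form, encoded by *Tcirg1* (chr19:3896050-3907133, GENCODE M21, GRCm38), is the one of the ruffled border. *Tcirg1* had 23648, 21105, 27675 and 25008 normalized counts in *Elmo1*+/- libraries 1 to 4 and 20379, 16290.0, 27103 and 27489 in *Elmo1*-/- libraries 1 to 4. Its lowest library was *Elmo1*-/- 2, and both *Elmo1*-/- libraries numbered 1 and 2 lay below both controls so numbered, whereas those numbered 3 and 4 lay between the controls so numbered. The means were 24359 ± 2739 in *Elmo1*+/- and 22815 ± 5439 in *Elmo1*-/- libraries (SD, n = 4 each) and the log2 fold change was -0.12 (SE 0.17, 95% interval -0.51 to 0.27), which was -0.29 within libraries 1 and 2 and 0.053 within libraries 3 and 4. Across the sets of numbers, *Tcirg1* was 1.32-fold higher in libraries 3 and 4.

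The other a genes were less abundant. *Atp6v0a1* (chr11:101009452-101063719), the a1 form best known from neurons, had 5475, 5402, 4314 and 4026 normalized counts in *Elmo1*+/- libraries 1 to 4 and 5502, 4922, 4214 and 4830.1 in *Elmo1*-/- libraries 1 to 4. It was the 1 member lower in every library numbered 3 and 4 than in every library numbered 1 and 2, at 0.816 of the level, although the nearest values of the sets, 4922 and 4830.1, both from *Elmo1*-/- libraries, lay close. Its genotypes overlapped, with a log2 fold change of 0.025 (SE 0.12, 95% interval -0.26 to 0.31). *Atp6v0a2*, the a2 form of Golgi and endosomes, had 1946, 1935, 2011 and 1894 normalized counts in *Elmo1*+/- libraries 1 to 4 and 1761, 1851, 1944 and 2112 in *Elmo1*-/- libraries 1 to 4, and its log2 fold change was -0.025 (SE 0.070, 95% interval -0.18 to 0.13). Its libraries overlapped under either grouping. *Atp6v0a4*, the kidney form, was listed at 0.920 (1 read) in *Elmo1*+/- library 1 and at 0 in the other 7, where the limit that a count of 0 allows is 3 reads, or 2.33 to 4.57 normalized counts per library.

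Per exonic kilobase, the scale used here for comparing genes, *Tcirg1* averaged 5124 ± 884, *Atp6v0a1* 738 ± 91.1 and *Atp6v0a2* 287 ± 15.5 normalized counts (SD over 8 libraries). *Tcirg1* thus made up the following shares of the a family, 82.0%, 80.5%, 86.3% and 85.8% in *Elmo1*+/- libraries 1 to 4 and 80.1%, 77.5%, 86.3% and 85.0% in *Elmo1*-/- libraries 1 to 4. Its share was highest in libraries 3 and 4, at 85.0% to 86.3%, and at 77.5% to 82.0% in libraries 1 and 2. The genotype means of that share were 83.7% ± 2.85 in *Elmo1*+/- and 82.2% ± 4.14 in *Elmo1*-/- libraries (SD, n = 4 each). The difference lay within that spread, which includes the difference by number (exact two-sided permutation p = 0.600, adjusted over 7 families 0.840). With swaps only between libraries of the same number, the exact two-sided permutation p was 0.25, unadjusted. *Atp6v0a1* held 9.42% to 10.5% of the family in libraries 3 and 4 and 13.3% to 16.4% in libraries 1 and 2.

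Subunit d couples the rotating stalk to the membrane ring, and its d2 form marks osteoclasts, where it is also known for its part in cell fusion. *Atp6v0d2* (chr4:19876841-19922605) had 10022, 9366, 24945 and 24164 normalized counts in *Elmo1*+/- libraries 1 to 4 and 5156, 10556, 25761 and 24879 in *Elmo1*-/- libraries 1 to 4. *Elmo1*-/- library 1 stood lowest by far, the other libraries numbered 1 and 2 lay close together in both genotypes, and so did all 4 numbered 3 and 4 at a higher level. The genotype means were 17124 ± 8589.8 in *Elmo1*+/- and 16588 ± 10328 in *Elmo1*-/- libraries (SD, n = 4 each), and the log2 fold change of -0.17 (SE 0.56, 95% interval -1.45 to 1.10) had the widest interval of all members. Each genotype held libraries of both levels, and the difference was -0.39 within libraries 1 and 2 and 0.044 within libraries 3 and 4.

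Between the sets of numbers, *Atp6v0d2* was 2.84-fold higher in libraries 3 and 4 (1.56 in log2, above 98.8% of tested genes). This difference was present in both genotypes, at 1.34 in *Elmo1*+/- and 1.78 in *Elmo1*-/- libraries, and was 1.32 without *Elmo1*-/- library 1. Its ubiquitous paralog *Atp6v0d1* (chr8:105524465-105566047) had 11499, 10764, 11018 and 11074 normalized counts in *Elmo1*+/- libraries 1 to 4 and 11231, 10014, 10998 and 10323 in *Elmo1*-/- libraries 1 to 4. Those 8 values spanned 10014 to 11499 and overlapped under both groupings, with a fold of 0.998 between the sets of numbers. The log2 fold change by genotype was -0.061 (SE 0.067, 95% interval -0.21 to 0.091) in log2, the narrowest interval of the members.

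Per exonic kilobase, the leading d gene differed by library. The share of *Atp6v0d2* in the d family was 36.5%, 36.5%, 59.9% and 59.0% in *Elmo1*+/- libraries 1 to 4 and 23.3%, 41.0%, 60.7% and 61.4% in *Elmo1*-/- libraries 1 to 4. *Atp6v0d1* was the larger in every library numbered 1 and 2 and *Atp6v0d2* the larger in every one numbered 3 and 4, and with the longest transcript in place of merged exons the means of the *Atp6v0d2* share were 33.7% and 59.6%. The ratio of *Atp6v0d2* to *Atp6v0d1* ran from 0.303 in *Elmo1*-/- library 1 to 1.59 in *Elmo1*-/- library 4. By genotype the share was 48.0% ± 13.3 in *Elmo1*+/- and 46.6% ± 18.2 in *Elmo1*-/- libraries (SD, n = 4 each, exact two-sided permutation p = 1.00). The difference of -1.38 percentage points became 6.40 without *Elmo1*-/- library 1, when the sets of numbers were no longer balanced between the genotypes.

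**Figure D2:**
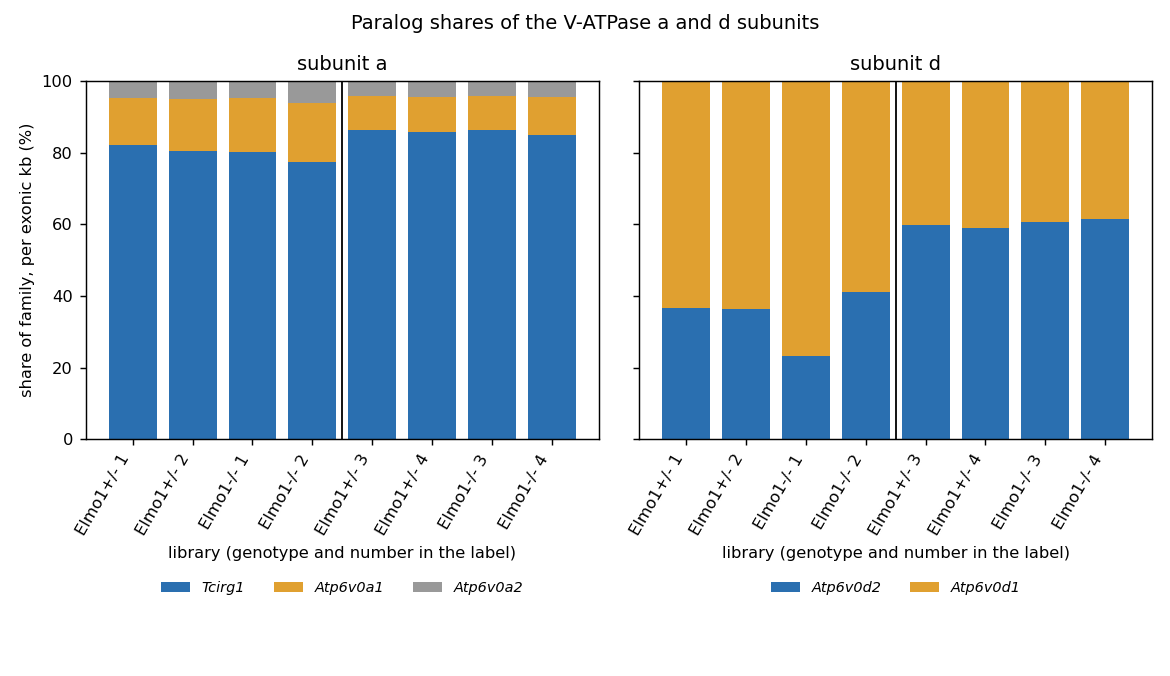
Bars give, for each library, the share of each paralog in the summed level per exonic kilobase of the a family (left) and the d family (right), with libraries 1 and 2 left of each line. *Tcirg1* filled 77.5% to 86.3% of the a family in all 8 libraries, while *Atp6v0d2* filled 23.3% to 41.0% of the d family left of the line and 59.0% to 61.4% right of it.

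**Figure D3:**
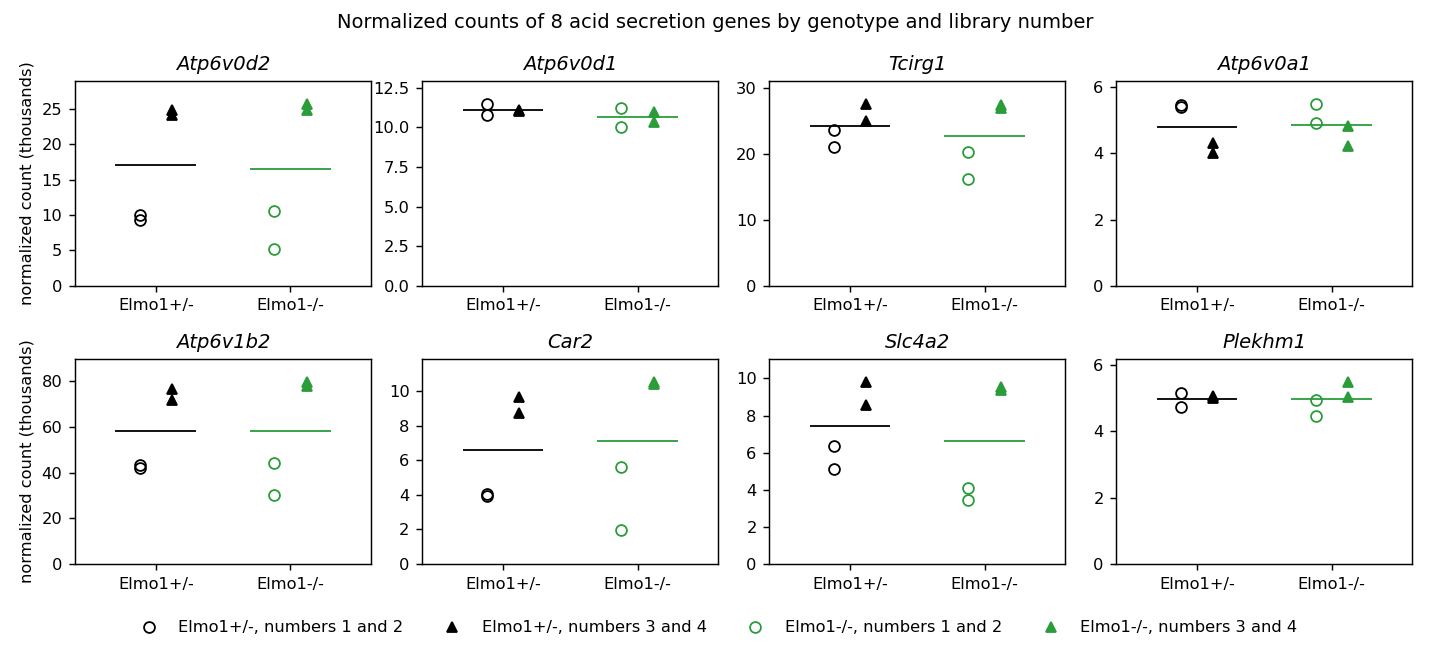
Points are the normalized counts (axes from 0, scaled as labelled) of 8 genes, with open circles for libraries 1 and 2, filled triangles for libraries 3 and 4, and a line at each genotype's mean over 4 libraries. *Atp6v0d2*, *Tcirg1*, *Atp6v1b2*, *Car2* and *Slc4a2* were higher in libraries 3 and 4 within each genotype, and *Atp6v0a1* was lower. *Atp6v0d1* overlapped by number in both genotypes, and *Plekhm1* overlapped in *Elmo1*+/- but not in *Elmo1*-/- libraries. The means of both genotypes lay close together in all 8 panels.

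The proton-carrying ring of V0 is built of the c and c'' subunits. *Atp6v0b*, the c'' subunit, ranged from 14951 to 18285 normalized counts in libraries 1 and 2 and from 21891 to 22978 in libraries 3 and 4, and at 9439 ± 1639 per exonic kilobase was second only to *Atp6v1b2* among the members. *Atp6v0c*, the c subunit, ranged from 6456 to 9682 in libraries 1 and 2 and from 10944 to 12112 in libraries 3 and 4, a 1.50-fold difference, and its log2 fold change by genotype was -0.15 (SE 0.23, 95% interval -0.67 to 0.37). Its level is uncertain, because the processed pseudogene *Atp6v0c-ps2* (chr6:37806086-37806550) matches its transcript at 99.8% of 465 bases and took 51.9% to 57.2% of the reads counted on either. The pseudogene's own values parted in the same way, with a fold of 1.49 between the sets of numbers, and the log2 fold change by genotype of the sum of both was -0.092. How reads that match both were counted is not given in the sources used here.

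**Figure D4:**
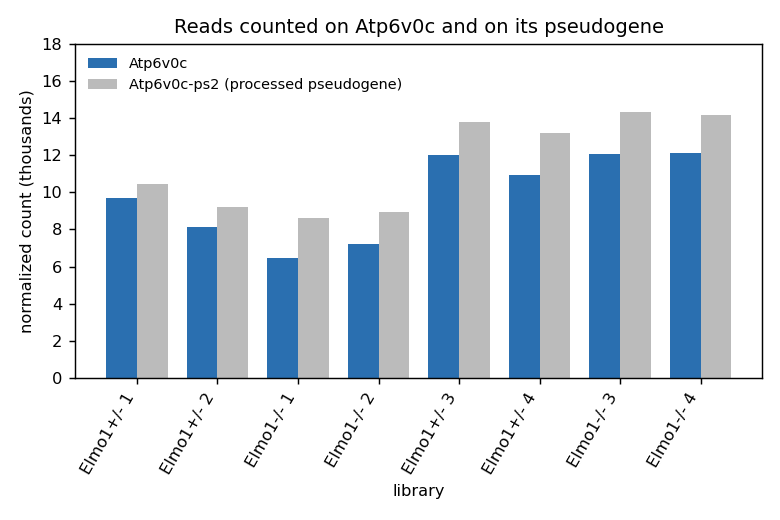
Bars are normalized counts (scaled as labelled) on *Atp6v0c* and on its processed pseudogene in each library. The pseudogene's bar was the taller in all 8 libraries, and both were higher in libraries 3 and 4.

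Subunit e is a small membrane protein of V0. *Atp6v0e* (chr17:26663231-26699647) had 11463, 10564, 12999 and 13158 normalized counts in *Elmo1*+/- libraries 1 to 4 and 9341, 9031, 13015 and 12735 in *Elmo1*-/- libraries 1 to 4. Both *Elmo1*-/- libraries numbered 1 and 2 were below all controls, while those numbered 3 and 4 lay among them. Its log2 fold change of -0.14 (SE 0.14, 95% interval -0.47 to 0.18) had the smallest p of the members, 0.349 unadjusted and 1.00 after Benjamini-Hochberg adjustment (limma). With the replicate number as a block its interval was -0.30 to 0.019, with an unadjusted p of 0.077 (limma), again the smallest of the members. Its paralog *Atp6v0e2* had 1.84, 1.98, 6.09 and 0.952 normalized counts in *Elmo1*+/- libraries 1 to 4 and 2.84, 9.58, 3.34 and 3.11 in *Elmo1*-/- libraries 1 to 4, too few to be tested, so *Atp6v0e* made up 99.8% or more of the family in every library.

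In the V1 sector, alternating A and B subunits form the head that hydrolyses ATP. *Atp6v1b2* (chr8:69088646-69113711), the B2 form, had 43477, 41763, 76348 and 71896 normalized counts in *Elmo1*+/- libraries 1 to 4 and 30221, 44240.1, 79629 and 77907 in *Elmo1*-/- libraries 1 to 4, and at 10968 ± 3789.6 per exonic kilobase was the most abundant member. All 4 libraries numbered 3 and 4 were above all 4 numbered 1 and 2, 1.91-fold in the mean, and the genotypes overlapped, with a log2 fold change of -0.066 (SE 0.34, 95% interval -0.85 to 0.72). The kidney form *Atp6v1b1* was listed at 0 in all 8 libraries, below the limit of 3 reads, so B2 held 100% of its family. *Atp6v1a*, the catalytic A subunit, ranged from 19141 to 27221 in libraries 1 and 2 and from 44740.3 to 46905 in libraries 3 and 4, a 1.82-fold difference. Per exonic kilobase the ratio of *Atp6v1b2* to *Atp6v1a* stayed between 1.80 and 2.01 in all 8 libraries, while both genes parted between the sets of numbers. *Atp6v1b2* lies opposite to and overlaps *Slc18a1*, at 863 normalized counts, and the strand setting of the counting is not given in the sources used here.

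Subunit C clamps the V1 head to the membrane sector and is known to bind actin. *Atp6v1c1* (chr15:38661933-38692446) had 10966, 10615, 15819 and 15550.5 normalized counts in *Elmo1*+/- libraries 1 to 4 and 8676, 10907, 15303 and 14985 in *Elmo1*-/- libraries 1 to 4, 1.50-fold more in libraries 3 and 4, and a log2 fold change by genotype of -0.10 (SE 0.21, 95% interval -0.59 to 0.39). *Atp6v1c2* had 0.920, 1.98, 1.52 and 1.90 normalized counts in *Elmo1*+/- libraries 1 to 4 and 1.89, 0, 2.50 and 6.22 in *Elmo1*-/- libraries 1 to 4. It was not tested, and *Atp6v1c1* made up 99.9% or more of the C family in every library.

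Subunits E and G form the outer stalks that hold the head still. *Atp6v1e1* (chr6:120794305-120822793) had 14745, 13584, 19919.9 and 19926 normalized counts in *Elmo1*+/- libraries 1 to 4 and 12462, 14082, 20604 and 19084 in *Elmo1*-/- libraries 1 to 4. Libraries 3 and 4 were 1.45-fold higher without overlap, while the genotypes overlapped with a log2 fold change of -0.051 (SE 0.19, 95% interval -0.49 to 0.39). *Atp6v1e2*, the testis form, was at 0.946 (1 read) and 1.56 (2 reads) normalized counts in *Elmo1*-/- libraries 1 and 4 and at 0 in the other 6.

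*Atp6v1g1*, the ubiquitous G1 form (chr4:63544772-63550750), had 6641, 6118, 8625 and 8556 normalized counts in *Elmo1*+/- libraries 1 to 4 and 5418, 5376, 8797 and 8283 in *Elmo1*-/- libraries 1 to 4. As for most subunits, all libraries numbered 3 and 4 were above all numbered 1 and 2, by 1.45-fold, and the log2 fold change by genotype was -0.12 (SE 0.20, 95% interval -0.57 to 0.32). A processed pseudogene, *Gm13453*, matches *Atp6v1g1* at 99.4% of 357 bases and had a mean of 1078 normalized counts against 7227. *Atp6v1g2*, the neuronal G2 form (chr17:35233660-35238767), was the lowest member to be tested, with 64.4, 60.3, 85.3 and 80.9 normalized counts in *Elmo1*+/- libraries 1 to 4 and 88.0, 81.4, 79.3 and 72.3 in *Elmo1*-/- libraries 1 to 4. Its log2 fold change, 0.15 (SE 0.15, 95% interval -0.20 to 0.50), was the highest of the members and was not alike in the sets of numbers, at 0.44 within libraries 1 and 2 and -0.13 within libraries 3 and 4. It overlaps *Nfkbil1* on the other strand, which had a mean of 296.2 normalized counts, so its own part of these reads is uncertain. *Atp6v1g3* was listed at 0 in all 8 libraries, and *Atp6v1g1* made up 99.3% to 99.6% of the G family.

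The central rotor and the regulatory subunits of V1 parted by number as the head did. *Atp6v1d*, a rotor subunit, ranged from 6186 to 7803 normalized counts in libraries 1 and 2 and from 11793 to 12580.1 in libraries 3 and 4 (1.71-fold). *Atp6v1f*, its rotor partner, ranged from 4945 to 6177 and from 6542 to 7262 (1.26-fold), and *Atp6v1h*, which regulates ATP hydrolysis, from 5710.2 to 6803 and from 8838 to 9707 (1.47-fold). Their log2 fold changes by genotype were -0.10 (SE 0.27, 95% interval -0.72 to 0.52), -0.074 (SE 0.14, 95% interval -0.39 to 0.24) and -0.11 (SE 0.20, 95% interval -0.56 to 0.34) in the same order. Of the 9 tested V1 subunits, 8 were higher in libraries 3 and 4 without overlap, all but *Atp6v1g2*, with a median difference of 0.56 in log2. Of the 8 tested V0 subunits 5 were, with a median of 0.39. Of all tested genes 18.1% were, and the median over all tested genes was -0.0072.

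The accessory subunits sit on the membrane side of the pump and are needed for its assembly and delivery. *Atp6ap1* ranged from 16689.9 to 20522 normalized counts in libraries 1 and 2 and from 20134 to 22617 in libraries 3 and 4, which overlapped. *Atp6ap2*, also known as the prorenin receptor, ranged from 11195 to 14556 and from 18203 to 20349.6, which did not, a 1.46-fold difference. Their log2 fold changes by genotype were -0.046 (SE 0.11, 95% interval -0.29 to 0.20) and -0.067 (SE 0.21, 95% interval -0.54 to 0.40).

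Chloride follows the protons through ClC-7, which needs OSTM1 as its stabilizing partner. *Clcn7* (chr17:25133391-25162104) had 14877, 12427, 18068 and 17614 normalized counts in *Elmo1*+/- libraries 1 to 4 and 11771, 10173, 17569 and 18122 in *Elmo1*-/- libraries 1 to 4. *Elmo1*-/- libraries 1 and 2 were the lowest, libraries 3 and 4 were close together in both genotypes, and the log2 fold change was -0.16 (SE 0.21, 95% interval -0.63 to 0.32), or -0.31 within libraries 1 and 2 and 0.00028 within libraries 3 and 4. *Ostm1* (chr10:42583822-42702459) had 3570.2, 3442, 3945 and 3740.3 normalized counts in *Elmo1*+/- libraries 1 to 4 and 3073, 2979, 4046 and 4258 in *Elmo1*-/- libraries 1 to 4, with a log2 fold change of -0.050 (SE 0.13, 95% interval -0.34 to 0.23). Both genes were higher in libraries 3 and 4 without overlap, *Clcn7* 1.45-fold and *Ostm1* 1.22-fold. Per exonic kilobase *Clcn7* averaged 2849.7 ± 609.9 and *Ostm1* 504 ± 63.2 normalized counts (SD over 8 libraries).

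Carbonic anhydrase 2 makes the protons and the bicarbonate from carbon dioxide and water. *Car2* (chr3:14886273-14900770) had 4071, 3927, 9681 and 8733 normalized counts in *Elmo1*+/- libraries 1 to 4 and 1993, 5607, 10421 and 10545 in *Elmo1*-/- libraries 1 to 4. *Elmo1*-/- library 1 had the least and *Elmo1*-/- libraries 3 and 4 the most, and the genotype means were 6603 ± 3032 in *Elmo1*+/- and 7141 ± 4131 in *Elmo1*-/- libraries (SD, n = 4 each). Its log2 fold change of -0.035 (SE 0.55, 95% interval -1.28 to 1.21) turned to 0.11 in edgeR and in DESeq2, which average on the scale of counts, and was -0.26 within libraries 1 and 2 and 0.19 within libraries 3 and 4. Libraries 3 and 4 were 2.52-fold higher, the second largest difference among the members after *Atp6v0d2*. In log2 that difference was 1.42, and 1.13 without *Elmo1*-/- library 1.

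The exchanger AE2 removes the bicarbonate in return for chloride. *Slc4a2* (chr5:24423837-24440950) had 6348, 5126, 9812 and 8549 normalized counts in *Elmo1*+/- libraries 1 to 4 and 3461, 4116, 9528 and 9358 in *Elmo1*-/- libraries 1 to 4. Both *Elmo1*-/- libraries numbered 1 and 2 lay below every control, and both numbered 3 and 4 lay between the controls so numbered. Its log2 fold change of -0.28 (SE 0.37, 95% interval -1.11 to 0.55) was the lowest of the members and did not pass the test (adjusted p = 1.00, limma with Benjamini-Hochberg). It was -0.60 within libraries 1 and 2 and 0.044 within libraries 3 and 4, and moved to -0.014 overall without *Elmo1*-/- library 1. Libraries 3 and 4 were 1.96-fold higher without overlap. The end of *Slc4a2* shares 817 bases with *Fastk* on the other strand, which had a mean of 1696 normalized counts.

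Traffic to the ruffled border was represented by a sorting nexin and by a Rab7 effector. *Snx10* (chr6:51523901-51590679), which acts on endosomes and is needed for the ruffled border, had 9384, 9718, 14067 and 13959 normalized counts in *Elmo1*+/- libraries 1 to 4 and 6899, 9847, 16303 and 16873 in *Elmo1*-/- libraries 1 to 4. Its libraries numbered 3 and 4 were 1.71-fold higher without overlap, and the genotype difference was 0.015 (SE 0.29, 95% interval -0.65 to 0.68) in log2, or -0.21 within libraries 1 and 2 and 0.24 within libraries 3 and 4. *Plekhm1* (chr11:103364275-103412687), which links Rab7 to vesicle fusion, had 5161, 4739.8, 5055 and 4999 normalized counts in *Elmo1*+/- libraries 1 to 4 and 4954, 4466, 5047 and 5491 in *Elmo1*-/- libraries 1 to 4. These 8 values overlapped under both groupings, and the interval of the genotype difference, -0.0029 (SE 0.076, 95% interval -0.17 to 0.17), was among the narrowest.

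By genotype, 22 of the 25 tested members had a log2 fold change below 0 and 3 (*Atp6v0a1*, *Atp6v1g2* and *Snx10*) above 0, against 51.6% of all tested genes below 0, and none of these passed the test. The median was -0.074, against -0.0031 over all tested genes, and became 0.012 without *Elmo1*-/- library 1. Leaving out 1 mouse unbalances the sets of numbers between the genotypes, so such a value also carries any difference by number. Within libraries 1 and 2, 24 of 25 members were lower in *Elmo1*-/- (53.1% of all tested genes) with a median of -0.20. Within libraries 3 and 4, 10 of 25 were lower (47.7% of all tested genes) with a median of 0.044. *Elmo1*-/- library 1 was the lowest library for 13 members (28.3% of all tested genes) and *Elmo1*-/- library 2 for 10 (10.2%). Library 1 of *Elmo1*-/- lay below both controls numbered 1 and 2 in 20 members and library 2 in 16, each against 41.0% of all tested genes. With 2 libraries against 2, no test was made within a set of numbers. The osteoclast markers were lower in *Elmo1*-/- within libraries 1 and 2 in 10 of 10 genes, with a median of -0.47, and within libraries 3 and 4 in 0 of 10, with a median of 0.20. Library 1 of *Elmo1*-/- lay below both controls numbered 1 and 2 in 10 of these markers and library 2 in 6. The markers' median log2 fold change by genotype was -0.013 with all mice and 0.18 without *Elmo1*-/- library 1, with the same imbalance. The part of the osteoclast markers in the members' values was not tested.

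**Figure D5:**
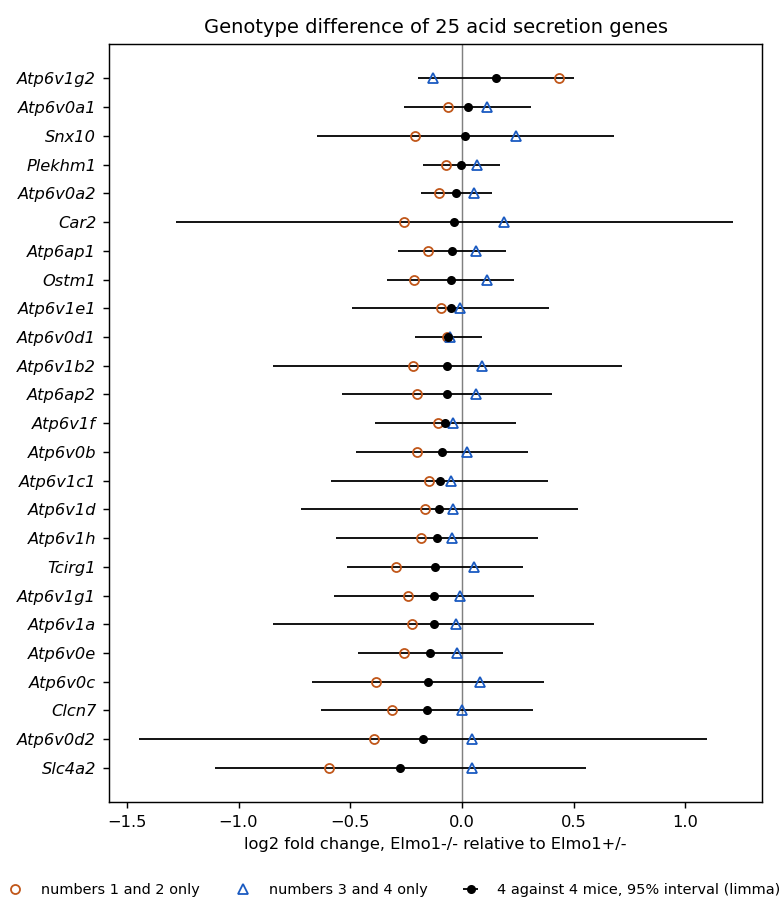
Filled points are the log2 fold changes of *Elmo1*-/- relative to *Elmo1*+/- for 25 genes with limma's 95% intervals (4 against 4 mice). Open circles and triangles are the same difference within libraries 1 and 2 and within libraries 3 and 4, without intervals. Every interval spans 0, and the circles lie left of 0 for all genes but *Atp6v1g2*.

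By number, the median difference of the 25 members was 0.55 in log2, against -0.0072 over all tested genes. Without *Elmo1*-/- library 1 it was 0.49, and 19 members were higher in libraries 3 and 4 without overlap, a count that leaving out a library cannot lower. Behind *Atp6v0d2* and *Car2* came *Slc4a2* (1.00), *Atp6v1b2* (0.95), *Atp6v1a* (0.88), *Atp6v1d* and *Snx10* (both 0.78). At the other end were *Plekhm1* (0.093), *Atp6v0a2* (0.088), *Atp6v0d1* (-0.0017) and *Atp6v0a1* (-0.29). The 10 osteoclast markers had a median difference of 1.05 in the same direction and the 10 macrophage markers one of -0.25. The medians were -0.61 for the 9 neutrophil markers tested (1 lower without overlap), -0.52 for the 3 stromal and osteoblast markers (all overlapping), 0.51 for the 4 dendritic markers (1 higher without overlap) and -0.80 for the only B cell marker tested, *Cd79b*, which was lower without overlap. The part of these lists in the members' values was not tested.

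Genes around the pump were read from the same fit. Of 14 genes for pump assembly and its regulators (such as *Vma21*, *Dmxl2* and *Wdr7*), 12 were tested and 0 called in either direction, 7 were higher in libraries 3 and 4 without overlap, and the largest genotype difference was that of *Wdr7*, which encodes a rabconnectin subunit, at -0.19 (SE 0.16, 95% interval -0.55 to 0.18). With the replicate number as a block its interval was -0.35 to -0.029, with an unadjusted p of 0.025 and an adjusted p of 1.00 (limma, Benjamini-Hochberg). Of 30 other acid-base and chloride transporters, 19 were tested and 0 called, with 4 higher and 2 lower in libraries 3 and 4 without overlap. The largest genotype difference there was that of *Slc4a8*, a sodium-driven bicarbonate exchanger, which had 124, 107, 181 and 159 normalized counts in *Elmo1*+/- libraries 1 to 4 and 70.0, 51.5, 124 and 144 in *Elmo1*-/- libraries 1 to 4. Its genotypes overlapped, and its log2 fold change of -0.63 (SE 0.33, 95% interval -1.39 to 0.12) had an unadjusted p of 0.0880 and an adjusted p of 1.00 (limma, Benjamini-Hochberg). In each of the 4 pairs of libraries with the same number, *Slc4a8* was lower in *Elmo1*-/-. With the number as a block its SE was 0.16 and its interval -0.99 to -0.27, with an unadjusted p of 0.0029 and an adjusted p of 1.00 (limma, Benjamini-Hochberg). Of 26 genes for ruffled border traffic, 25 were tested and 0 called, with 8 higher and 2 lower in libraries 3 and 4 without overlap, and the largest genotype difference was that of *Rab44*, a large Rab GTPase, at 0.26 (SE 0.33, 95% interval -0.47 to 1.00). Beside these counts by number, 18.1% of all tested genes were higher in libraries 3 and 4 without overlap and 15.8% lower. Without the block, no tested gene of these 3 lists had an unadjusted p under 0.05 in limma or in edgeR. With it, limma gave 1 of 12 for pump assembly (*Wdr7*), 1 of 19 for acid-base transport (*Slc4a8*) and 0 of 25 for ruffled border traffic, against 2.75% of all tested genes. The medians of the differences by number were 0.29 for pump assembly, 0.078 for acid-base transport, -0.078 for ruffled border traffic and -0.043 for the MiT/TFE genes, against 0.55 for the members.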

How the data were processed

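mRNA from 8 osteoclast cultures, 4 per genotype, was sequenced as 75 bp paired-end reads (Illumina TruSeq libraries, NextSeq). The submitters' processing notes name FastQC, STAR, featureCounts and DESeq2, while versions, genome build, annotation and strand setting are, in the sources used here, not given. The deposited table holds a normalized signal, made by the authors by dividing gene counts by 1 size factor from DESeq2 for each library, for 46517 Ensembl identifiers. It also holds the authors' own comparison of the genotypes (a mean signal, a log2 fold change, its error and test statistic as score columns, a p-value and an adjusted p-value), which was not used. Undoing each library's size factor returned whole reads (tolerance 0.01 of a read) in 100.0% of cases, 20905502 to 40846651 reads per library. Limits for counts of 0 were taken as 3 reads and cover counting error only.

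Groups came from the genotype label. Names, positions and merged exon lengths came from GENCODE mouse release 21 (GRCm38), which matched 46005 identifiers and not the other 512. Genes reaching 10 normalized counts in 4 or more libraries (14139) were tested on log2(normalized count + 1) with limma 3.58.1 (trend and robust) in R 4.3.3, with Benjamini-Hochberg adjustment over all of them and a threshold of 0.05. Fold changes are on that scale, *Elmo1*-/- relative to *Elmo1*+/-. Paralog shares were compared by an exact two-sided permutation test over mice, and that of *Tcirg1* also with swaps only between libraries of the same number. Alternatives were edgeR 4.0.16 and DESeq2 1.42.0 on recovered reads, scaling to the same total or by TMM, no filter, a minimum of 50, pseudocounts of 0.5 and 8, each mouse left out, the replicate number as a block, and the set of numbers as a term. Adding the pseudogene's counts to *Atp6v0c* and leaving out libraries or rescaling for the difference by number were chosen after seeing the data. Scripts were tested on simulated data. Sequence copies were matches of at least 95% over at least 200 bases.

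The members, the gene lists and the tests were chosen with earlier results of these data known. Values in every library are given for genes of families with more than 1 member, for *Tcirg1*, *Clcn7*, *Ostm1*, *Car2*, *Slc4a2*, *Snx10* and *Plekhm1* and for the 3 largest log2 fold changes in each direction, and other members by their range. Of each further list, called genes and the gene with the largest log2 fold change are named, and other genes named were chosen after their values were seen. The replicate numbers were checked for pairing. Deviations from the genotype means correlated across genes at 0.156 to 0.703 in all 4 pairs that share a number, above the 0.1 set for treating them as paired. Pairs of unlike numbers within a set had 0.0259 to 0.691. The members' main values nevertheless come from the fit without the number as a block. With it, the members' intervals were narrower for all but *Atp6v1g2* (-0.22 to 0.52), and all spanned 0. Examples are *Atp6v0d2* at -0.69 to 0.34, *Car2* at -0.77 to 0.70, *Slc4a2* at -0.68 to 0.13 and *Clcn7* at -0.33 to 0.021.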

Additional observations from a re-analysis of the deposited data

How the results depend on the processing

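Under every alternative run, 0 members were called, with adjusted p-values of 0.936 or more, and the fit with the replicate number as a block also called 0 members and the same 1 gene, *Elmo1*, and changed no other call. DESeq2 called 2 genes, adding *Gpr137b-ps*, which is no member, and leaving out each mouse gave 1 to 2 genes, the same gene being added without *Elmo1*+/- library 2. Among settings other than leaving out a mouse, 247 of 251 members' log2 fold changes kept their direction and their side of the threshold. The exceptions were *Car2*, at 0.11 in edgeR and 0.11 in DESeq2, and *Plekhm1*, at 0.00080 in DESeq2 and 0.0035 with equal totals. Leaving out 1 mouse turned the sign in 42 of 200 fits, for 19 members, none of them called. Each such fit leaves the sets of numbers unbalanced between the genotypes, so its value also carries any difference by number. With their lowest and highest log2 fold changes these were *Atp6v0a1* -0.055 to 0.093, *Atp6v0a2* -0.073 to 0.015, *Tcirg1* -0.22 to 0.031, *Atp6v0b* -0.19 to 0.015, *Atp6v0c* -0.29 to 0.012, *Atp6v0d2* -0.48 to 0.29, *Atp6v1a* -0.29 to 0.12, *Atp6v1b2* -0.26 to 0.21, *Atp6v1c1* -0.21 to 0.061, *Atp6v1d* -0.26 to 0.084, *Atp6v1e1* -0.17 to 0.075, *Atp6v1f* -0.16 to 0.024, *Atp6v1h* -0.24 to 0.011, *Atp6ap1* -0.11 to 0.035, *Atp6ap2* -0.20 to 0.090, *Ostm1* -0.14 to 0.033, *Car2* -0.31 to 0.49, *Snx10* -0.16 to 0.27 and *Plekhm1* -0.050 to 0.049.
The difference in share, *Elmo1*-/- minus *Elmo1*+/-, lay between -2.78 and 0.160 percentage points for *Tcirg1* and between -6.31 and 6.40 for *Atp6v0d2*, which was -1.38 with all mice and positive without *Elmo1*+/- library 3 or 4 or *Elmo1*-/- library 1 or 2. The members' median log2 fold change lay between -0.21 and 0.012. The count of members apart between the sets of numbers was 20 to 22 when a mouse was left out, 23 with equal totals and 20 with TMM. Leaving out a mouse can only keep or raise such a count. The share of all tested genes in these settings is not given here, so the counts cannot be set against 34.0%, the share from the main setting. The members' median difference by number was 0.49 to 0.59 when a mouse was left out. With 4 mice per genotype and libraries of both levels in each, the intervals of *Atp6v0d2*, *Car2* and *Slc4a2* were the widest of the members. The 6 untested members did not reach 10 normalized counts in 4 libraries.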
